A study of Mus musculus with 21 samples.

Results

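Dorsal and ventral hippocampus were compared in mice of the Acss2 knockdown arm after ethanol. The members were chosen by their labels and their depth: the libraries labelled knockdown, ethanol and dorsal (replicates 1 to 4) or ventral (replicates 2 to 4), 7 of the 21 libraries in the series. Another 2 libraries with the same labels, dorsal 5 and ventral 1, held 5021 and 8744 gene reads, under the limit of 1000000, and were left out. All animals were males of 8 weeks given ethanol at 2 g per kg into the peritoneum, as a 20% solution in saline. Per the labels' protocol, the knockdown vector was an AAV2/9 virus carrying U6.shACSS2.CMV.EGFP, a short hairpin RNA under the U6 promoter, injected into the dorsal hippocampus. The series text can also be read as a systemic injection of the hairpin. The comparison arm, labelled Control, had 3 dorsal and 4 ventral libraries after the same ethanol dose, and the labels name no vector for it. No source used here gives the mouse strain, the time from ethanol to dissection, or whether replicates were separate animals. The p-values therefore measure the spread between these libraries, which may be technical.

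The hippocampus is one folded sheet of neurons that runs from a dorsal to a ventral pole. Its circuit is the same along that axis, with granule cells of the dentate gyrus, mossy cells and the pyramidal neurons of CA3, CA2 and CA1. The poles differ in gene expression, and the dorsal part is best known for spatial memory and the ventral part for stress and emotion. Acss2 encodes acetyl-CoA synthetase 2, which makes acetyl-CoA from acetate, the end product of ethanol breakdown in the liver. Acetyl-CoA is the donor for histone acetylation.

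Acss2 itself was measured first. It stood at 44.3, 40.9, 18.0 and 19.3 CPM (counts scaled by TMM to a library of 1000000 reads) in dorsal knockdown 1 to 4 and at 28.9, 63.6 and 36.7 CPM in ventral knockdown 2 to 4. The dorsal controls held 54.9 ± 3.34 CPM (SD, n = 3) and the ventral controls 50.05 ± 3.03 CPM (SD, n = 4), so every dorsal knockdown library lay below every dorsal control, while the library labelled ventral knockdown 3 lay above every ventral control and so goes against its label. Here and below, "knockdown" is the label's name for a library and does not state that Acss2 was reduced in it. Between the regions of the knockdown arm the groups overlapped, with a log2 difference (dorsal minus ventral) of -0.49 (SE 0.32, unadjusted p = 0.147, adjusted p = 1.0 by edgeR). It was -0.10 without ventral knockdown 3. Acss2 lies on chromosome 2, 155517948 to 155585724, plus strand (GRCm38).

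The 7 libraries held 7416053 to 10634142 gene reads, and they did not group by region. Across 14160 genes, Pearson r of log2 CPM was 0.925 to 0.960 between dorsal libraries, 0.898 to 0.949 between ventral libraries and 0.914 to 0.958 between libraries of different regions. The closest partner of dorsal knockdown 2 was ventral knockdown 3, at 0.958. These same 2 libraries had the highest share of uniquely aligned reads in genes, 76.2% and 81.0% against 57.4% to 68.1% in the other 5. Short genes were relatively higher in both: the deviation of a gene from its mean over the 7 libraries had Spearman rho of -0.54 and -0.48 with exon length across 13729 genes, against -0.04 to 0.45 in the others. The part of the gene share in the comparison was not tested. With each library's trend on exon length removed, an alternative chosen after seeing the data, 0 genes had an adjusted p under 0.05 by edgeR and 369 an unadjusted p under 0.05.

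**Figure D1:**
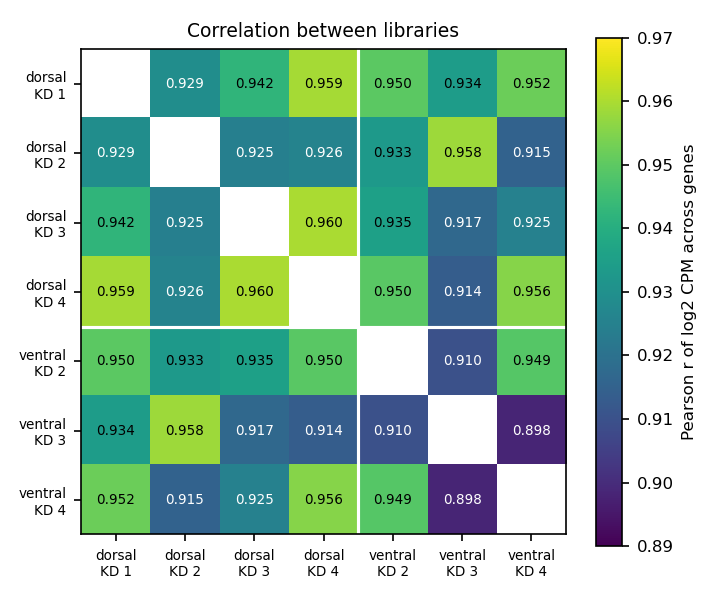
Pearson correlation of log2 CPM across 14160 genes between each pair of the 7 knockdown libraries, with the white lines separating dorsal from ventral libraries. Dorsal KD 2 and ventral KD 3 (0.958) resemble each other more than either resembles another library of its own region.

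No gene passed the test between the regions. Of 14578 genes tested by edgeR's quasi-likelihood F-test with Benjamini-Hochberg adjustment, 0 (0%) had an adjusted p under 0.05, and the smallest adjusted p was 1.0. At an unadjusted p under 0.05 stood 317 genes (2.17%), of which 187 (1.28%) had the higher mean in dorsal and 130 (0.892%) in ventral libraries. DESeq2 called 0 genes and had 391 at an unadjusted p under 0.05. The count of 317 was 192 without dorsal knockdown 3 and 845 without ventral knockdown 3. The direction was higher in dorsal for 6986 genes (47.9%) and lower for 7592 (52.1%), and the median log2 difference over all genes was -0.01. All 4 dorsal libraries exceeded all 3 ventral ones in 150 genes (1.03%) and lay below them in 104 (0.713%). The median gene had a standard error of 0.32 on the log2 scale, with a median SD between replicates of 0.37 in dorsal and 0.43 in ventral libraries. Everything below is therefore a description of levels in these libraries, and no gene named is called as different.

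Ccnd1, which encodes cyclin D1, the regulatory subunit of the kinases that start the cell cycle, had the smallest p. It stood at 75.2, 68.2, 111 and 73.5 CPM in the dorsal libraries and at 33.7, 35.5 and 38.9 CPM in the ventral ones. The groups did not overlap, and the log2 difference was 1.19 (SE 0.25, unadjusted p = 0.000296, adjusted p = 1.0 by edgeR). Controls held 47.5 ± 7.46 CPM in dorsal (SD, n = 3) and 43.8 ± 12.9 CPM in ventral libraries (SD, n = 4), which places the dorsal knockdown libraries above the other groups. Ccnd1 lies on chromosome 7, 144929931 to 144939925, minus strand (GRCm38).

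Another 11 genes of at least 5 CPM were named for the smallest p among those with all dorsal libraries higher. Rgs2, an inhibitor of G protein signalling that neuronal activity induces, held 88.7, 77.7, 64.7 and 128 CPM against 47.4, 33.3 and 36.4 CPM (log2 difference 1.20, SE 0.32). In controls its order was the other way, with 30.1 ± 4.71 CPM in dorsal and 51.2 ± 21.7 CPM in ventral libraries (SD, n = 3 and 4). C4b, complement component 4B, held 137, 137, 567 and 401 CPM against 118, 52.9 and 78.1 CPM (1.9, SE 0.58). Its close copy C4a shares sequence with it, so how reads were divided between them is uncertain. Dorsal knockdown 3 and 4 carried the high values, and the lowest dorsal value was close to the highest ventral one. Pcdh8, a protocadherin of synapses, held 251, 63.2, 109 and 151 CPM against 55.8, 58.9 and 43.1 CPM (1.45, SE 0.51). Trnp1, a nuclear protein of neural progenitors, held 346, 235, 327 and 281 CPM against 164, 198 and 188 CPM (0.70, SE 0.25), a narrower spread than the others. Lipg (endothelial lipase), Pdlim1, Ccdc88b, Amz1, Tgfb3 (a transforming growth factor), Spidr and Sgsh (a lysosomal sulfatase) had log2 differences of 0.67 to 1.62.

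Among genes with all dorsal libraries lower, 12 were named by the same rule. Scnn1a, a subunit of the epithelial sodium channel and a marker of neocortical layer 4, held 2.85, 6.99, 6.99 and 4.02 CPM in dorsal against 15.8, 9.86 and 14.9 CPM in ventral libraries (log2 difference -1.36, SE 0.37, unadjusted p = 0.00258). Arntl, the clock transcription factor BMAL1, held 16.2, 17.3, 14.3 and 15.3 CPM against 19.1, 37.4 and 24.6 CPM (-0.78, SE 0.22). The dorsal values were tight, and ventral knockdown 3 was the highest. The control means of Arntl were level, at 23.9 ± 3.73 and 23.9 ± 1.24 CPM (SD, n = 3 and 4). Lrrtm4, a postsynaptic adhesion protein, held 15.7, 23, 19.9 and 20.1 CPM against 41.9, 33.6 and 28.6 CPM (-0.82, SE 0.29). Gls2, a glutaminase, held 11.8, 9.997, 13.8 and 19 CPM against 21.6, 22.3 and 25.1 CPM (-0.76, SE 0.30). Sept6, a septin of the cytoskeleton, held 54.1, 54.9, 66.8 and 56.9 CPM against 87.2, 90.3 and 76.8 CPM (-0.54, SE 0.19). For both Gls2 and Sept6 the control means had the opposite order, 23.6 against 13.7 and 76.1 against 50.9 CPM. Glt8d2, Kansl1l, Zfp882, Sema3c (a secreted semaphorin), Pcdhb12 and Hexim2 had log2 differences of -0.71 to -0.54. Wfs1, the remaining gene of the 12, is a region marker and is described next.

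By their group means, markers of the hippocampal poles did not follow the region labels in the knockdown arm. Of 6 dorsal markers 5 had the lower mean in dorsal libraries (median log2 difference -0.36), and of 11 ventral markers 9 had the higher mean there (median 0.55), against a median of -0.01 over all genes. In the control arm the medians were 1.44 for dorsal markers, with 5 of 6 higher in dorsal libraries, and -0.90 for ventral markers, with 10 of 11 lower. "Dorsal" and "ventral" in the text therefore stand for the labels alone. In bulk RNA, fewer cells of a type and less RNA per cell cannot be told apart, nor can a dissection elsewhere along the axis and a change in expression. Wfs1, the wolframin gene and a marker of dorsal CA1, held 144, 138, 86.5 and 133 CPM in dorsal knockdown against 263, 175 and 625 CPM in ventral knockdown. Every dorsal library lay below every ventral one (log2 difference -1.50, SE 0.42, unadjusted p = 0.00304, adjusted p = 1.0 by edgeR). The difference was -0.81 without ventral knockdown 4. In controls it held 314, 229 and 151 CPM in dorsal against 34.9, 78.3, 52.1 and 98.6 CPM in ventral libraries, without overlap in the opposite direction (1.80, SE 0.42). Mpped1, another dorsal marker, held 161 to 201 CPM in dorsal and 188, 134 and 323 CPM in ventral knockdown (-0.23, SE 0.48), where the groups overlapped, and its difference turned to 0.18 without ventral knockdown 4. Lct, the lactase gene, overlapped as well, at 1.88 to 12.6 CPM against 11.4, 48.0 and 1.56 CPM.

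On the ventral side, Coch, the cochlin gene, held 8.54, 8.54, 3.71 and 12.3 CPM in dorsal against 3.95, 1.35 and 4.47 CPM in ventral knockdown (1.34, SE 0.52, unadjusted p = 0.0216). The groups overlapped through dorsal knockdown 3. The ventral controls, at 11.8 ± 3.89 CPM, lay above all 3 ventral knockdown libraries. Htr2c, a serotonin receptor of ventral hippocampus and choroid plexus, held 44.3, 61.5, 24.8 and 20.5 CPM against 24.3, 14.6 and 29.6 CPM (0.73, SE 0.60). The summed level of the 11 ventral markers was 928, 1460, 493 and 442 CPM in dorsal and 470, 426 and 823 CPM in ventral knockdown, so dorsal knockdown 1 and 2 were the highest in that sum. By the list score, which weights members equally, dorsal knockdown 2 (1.27) was followed by ventral knockdown 4 (0.44) and dorsal knockdown 1 (0.38). The median of this list was 0.19 without dorsal knockdown 2 and 0.26 without ventral knockdown 3. That of the dorsal markers ran from -0.76 (without dorsal knockdown 3) to -0.14 (without dorsal knockdown 2 or ventral knockdown 2). Dorsal-marker scores were -0.09, -0.67, 0.51 and -0.61 in dorsal knockdown 1 to 4 and 0.33, 0.21 and 0.32 in ventral knockdown 2 to 4. Dorsal knockdown 3 thus had the highest dorsal-marker score. Its ventral-marker score was -0.61, and only ventral knockdown 3 was lower, at -1.18.

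**Figure D2:**
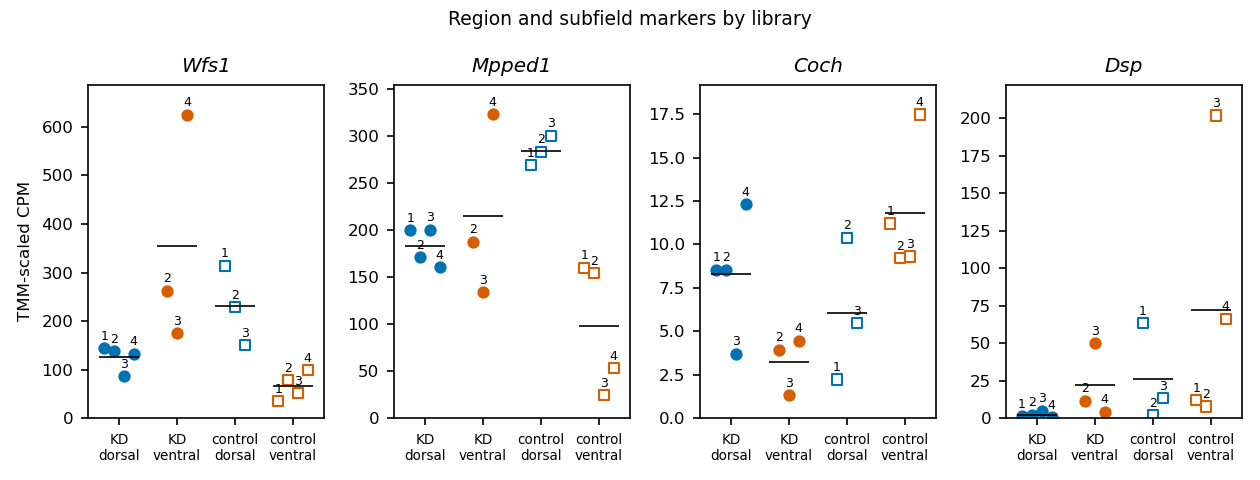
Levels of Wfs1 and Mpped1 (dorsal CA1), Coch (ventral pole) and Dsp (dentate granule cells) in TMM-scaled CPM on linear axes from 0, with 1 point per library numbered by replicate and a line at each group's mean; filled circles are knockdown (KD), open squares control. Wfs1 is lower in all 4 dorsal than in all 3 ventral knockdown libraries and higher in all 3 dorsal than in all 4 ventral controls.

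Subfield markers varied by library more than by region. For 13 dentate granule cell markers, 11 had the lower mean in dorsal libraries (median -0.44), as in controls (median -0.96, 13 of 13 lower). Dsp, the desmoplakin gene and a sharp marker of granule cells, held 1.42, 2.52, 5.13 and 0.670 CPM in dorsal against 11.7, 49.9 and 4.36 CPM in ventral knockdown (-3.14, SE 1.22, unadjusted p = 0.0218). The list score (the mean over members of log2 CPM minus the gene's mean over the 7 libraries) was 0.89 and 0.83 in ventral knockdown 2 and 3, and -0.74 in ventral knockdown 4, below all dorsal libraries (-0.45 to -0.02). Without ventral knockdown 2 the median was -0.05, and without ventral knockdown 4 it was -0.88. Stxbp6, a syntaxin-binding protein of granule cells, showed this order too, at 104, 59.9 and 31.6 CPM in ventral against 32.5 to 47.5 CPM in dorsal libraries.

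CA3 and mossy cell markers had a median of 0.14 (7 of 9 higher), against -0.91 in controls. It was -0.08 without ventral knockdown 4, -0.01 without dorsal knockdown 1 and 1.06 without ventral knockdown 3. Calb2, calretinin, which marks mossy cells of the ventral dentate gyrus, held 112, 120, 12 and 14.3 CPM in dorsal against 39.7, 6.43 and 9.66 CPM in ventral libraries (1.80, SE 0.89). Dorsal knockdown 1 and 2 carried its high values, as they did for the summed level of the ventral markers. CA1 markers had a median of -0.23 (3 of 7 higher) that turned to 0.37 without ventral knockdown 3, and 1.34 in controls. Fibcd1, a receptor gene that marks dorsal CA1, held 180, 98.2, 181 and 21.3 CPM against 18.5, 146 and 61.6 CPM. Dorsal knockdown 4 lay far below the other dorsal libraries, and the ventral values were widely spread.

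Tissue from outside the hippocampus was followed through its markers. Neocortex markers had a median of -0.45 (6 of 8 lower), which was -0.05 without ventral knockdown 2 and -0.89 without dorsal knockdown 4, with summed levels of 192, 172, 140 and 378 CPM in dorsal and 362, 190 and 375 CPM in ventral libraries. Lamp5, a marker of upper cortical layers, held 15.8, 32.2, 13.4 and 21.6 CPM against 41.9, 69.7 and 23.2 CPM. Thalamus and habenula markers had a median of -0.30 (9 of 11 lower), led by Rgs16 at 4.56 to 7.28 CPM against 12.8, 5.71 and 14 CPM. The vesicular glutamate transporter Slc17a6 held 4.70, 11.9, 1.09 and 5.22 CPM against 25.0, 1.14 and 17.6 CPM. In both lists ventral knockdown 2 and 4 had the highest scores, with dorsal knockdown 4 next, and ventral knockdown 3 stood low. Of 12 hypothalamus markers 4 passed the filter, all with the higher mean in dorsal (median 1.24, 0.46 without dorsal knockdown 3). Such low genes may have passed through the libraries where they were high, so this direction may be partly set by the filter. Trh, thyrotropin-releasing hormone, held 148 CPM in dorsal knockdown 3 and 28.8 CPM in ventral knockdown 2, and 0.268 to 1.97 CPM in the other 5 libraries. Pomc was at 1.14 to 2.41 CPM against 0.416 to 1.35 CPM. Whether any of these changed the other results was not tested.

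Cells of the ventricles and of the brain's covering differed strongly between single libraries. Choroid plexus markers had a median of 1.25 (10 of 12 higher in dorsal), and Ttr, the thyroid hormone carrier of that tissue, held 43.3, 198, 235 and 114 CPM against 28.5, 27.4 and 30.6 CPM without overlap (2.36, SE 1.59). These are low levels beside those of ventral control 4, the library with a list score of 5.84 in a control arm whose median was -3.50. Clic6, a chloride channel protein of the same epithelium, held 1.94 to 7.10 CPM against 0.494 to 2.18 CPM. Ependymal and motile cilia markers were higher in dorsal libraries in 10 of 10 cases (median 1.06, control -1.47). Foxj1, the master regulator of motile cilia, held 7.97, 7.08, 26.5 and 19.4 CPM against 5.81, 8.09 and 3.53 CPM, and the ciliary dynein Dnah11 held 2.13 to 6.77 CPM against 0.312 to 1.35 CPM without overlap (2.02, SE 0.90). The ependymal score of ventral knockdown 4 was -1.83, the lowest of the 7, and the median was 0.57 without that library and 1.84 without ventral knockdown 3.

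Meningeal fibroblast markers were lower in dorsal libraries in 14 of 15 cases (median -1.05), with 5 at an unadjusted p under 0.05, against 0.892% of all genes in that direction. This rested on ventral knockdown 4, whose score was 2.28 against -1.03 to 0.10 in the other 6 libraries, and without it the median was 0.13. Igf2, insulin-like growth factor 2 of the meninges, held 13, 25.2, 23.4 and 14.3 CPM against 18.6, 22.6 and 263 CPM. Because an antisense gene overlaps it, reads of Igf2 are uncertain by strand. The organic anion transporter Slc22a6 followed at 0.402 to 3.01 CPM against 2.1, 1.14 and 31.1 CPM, and the proteoglycan Ogn at 0.712 to 4.08 CPM against 1.48, 2.39 and 25.2 CPM. Mural cell markers (median -0.39, 8 of 10 lower) had the same library highest, with Myh11, smooth muscle myosin, at 36.1 CPM there and 4.08 to 10.6 CPM in the other 6. Their median was 0.06 without it. Brain endothelial markers, by comparison, had a median of -0.18 (9 of 12 lower) and summed levels of 315 to 514 CPM.

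**Figure D3:**
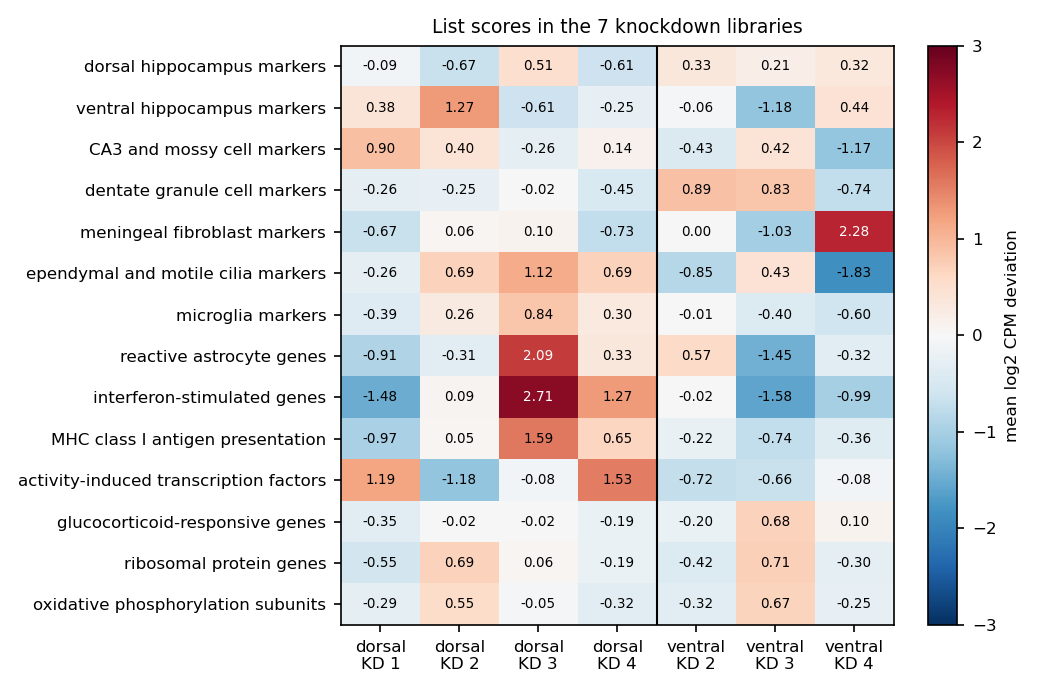
Scores of 14 gene lists in the 7 knockdown libraries, each the mean over members of log2 CPM minus the gene's mean over the 7 libraries, printed in the cells (red above, blue below). Several lists peak in 1 or 2 libraries: meningeal markers in ventral KD 4 (2.28), interferon genes in dorsal KD 3 (2.71) and ribosomal genes in dorsal KD 2 and ventral KD 3 (0.69 and 0.71).

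Genes that neuronal activity switches on had higher means in dorsal knockdown, with the highest list scores in dorsal knockdown 1 and 4. These genes fall into transcription factors made first, secreted or synaptic effectors, and feedback genes that end the response. Of 26 activity-induced transcription factors 22 had the higher mean in dorsal libraries (median 0.81), with 11 at an unadjusted p under 0.05 where 1.28% of all genes stood in that direction. The control arm had the same count of 22 of 26 higher in dorsal libraries, with a median of 0.47. Fosb, a subunit of the AP-1 factor, held 179, 8.35, 15.3 and 247 CPM in dorsal against 10.5, 6.12 and 13.3 CPM in ventral knockdown (log2 difference 3.49, SE 0.95, unadjusted p = 0.00235, adjusted p = 1.0 by edgeR). Fos held 275, 2.04, 16.1 and 402 CPM against 10.2, 6.02 and 17.0 CPM (3.96, SE 1.24). Npas4, a factor specific to neurons, held 365, 1.55, 24.8 and 586 CPM against 17.9, 8.09 and 23.7 CPM (3.88, SE 1.28). For each of these, dorsal knockdown 1 and 4 lay far above the ventral libraries, dorsal knockdown 3 lay within or just above their range, and the groups overlapped. Dorsal knockdown 2 was below all 3 ventral libraries for Fos and Npas4.

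The list score gave the same order, at 1.19, -1.18, -0.08 and 1.53 in dorsal knockdown 1 to 4 and -0.72, -0.66 and -0.08 in ventral knockdown 2 to 4. Control libraries scored -1.19 to 0.34, so both high dorsal knockdown libraries lay above every control. The only member of the 26 without overlap was Jun (log2 difference 0.69), named after its values were seen. Of all genes 1.03% had every dorsal library above every ventral one. Exceptions existed. Nr4a2, an orphan nuclear receptor, held 61.4, 31.2, 33.8 and 105 CPM against 91.7, 18.4 and 100 CPM (-0.28), and Bhlhe40 was at 64.7 to 77.2 CPM against 74.5 to 91.3 CPM (-0.21). The Nr4a2 difference was 0.07 without ventral knockdown 4, and its control difference was 1.84 in favour of dorsal libraries.

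Effectors had a median of 0.54 (19 of 25 higher, 7 at an unadjusted p under 0.05 against 1.28% of all genes). It was 0.34 without dorsal knockdown 3 or ventral knockdown 4 and 0.97 without ventral knockdown 2. Nptx2, a secreted pentraxin that gathers glutamate receptors at synapses, held 205, 22.5, 112 and 302 CPM against 42.1, 27.9 and 19.2 CPM (2.43, SE 0.67). The matricellular gene Cyr61 held 38.4, 3.59, 19.2 and 106 CPM against 10.9, 4.25 and 7.90 CPM (2.44, SE 0.75). In both, dorsal knockdown 3 joined the high libraries and dorsal knockdown 2 stood at or below the ventral level. Feedback genes had a median of 0.48 (23 of 27 higher, 7 at an unadjusted p under 0.05 against 1.28% of all genes). Zfp36, which binds AU-rich messages and speeds their decay, held 19.9, 5.24, 11.4 and 30.0 CPM against 3.34, 4.46 and 5.71 CPM (1.87, SE 0.47, unadjusted p = 0.00125). Dusp6, a phosphatase that switches off ERK, held 106, 26.8, 83.4 and 106 CPM against 30.0, 36.3 and 34.0 CPM (1.26, SE 0.37), and Gadd45b held 12.1 to 23.6 CPM against 6.92 to 14.2 CPM (0.84, SE 0.29). The control differences of these 5 genes were 0.11 to 0.73.

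**Figure D4:**
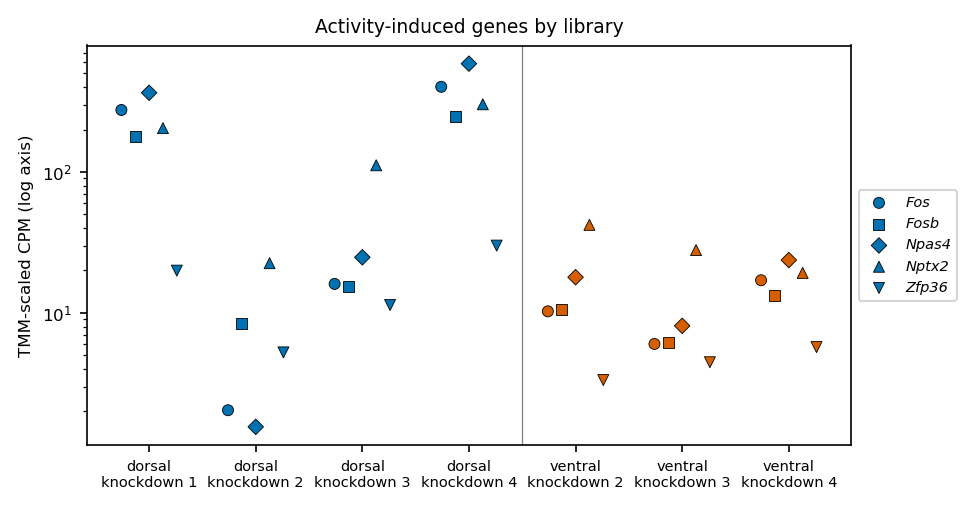
Levels of 5 activity-induced genes in TMM-scaled CPM on a log axis, 1 symbol per gene and library, blue for dorsal and orange for ventral knockdown. Dorsal knockdown 1 and 4 stand above the ventral libraries for each gene, whereas dorsal knockdown 2 holds 2.04 CPM of Fos.

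Promoters of the activity-induced and interferon-stimulated genes are shown as sequence alone. Whether their elements bear on the levels in these libraries was not tested. RefSeq promoters (GRCm38.p6) were matched by symbol, and the 250 bases before each start were searched on both strands. The letters TGACG, the core of the cAMP response element bound by CREB, were found in 15 of 20 matched activity-induced transcription factors (75.0%), 10 of 15 effectors (66.7%), 8 of 23 feedback genes (34.8%) and 3 of 24 interferon-stimulated genes (12.5%), against 19.8% of 27025 promoters. The interferon-stimulated response element (ISRE), searched as TTTC, any 2 bases and TTTC, was found in 15 of 24 interferon-stimulated genes (62.5%), 3 of 15 effectors (20.0%), 2 of 20 activity-induced transcription factors (10%) and 2 of 23 feedback genes (8.7%), against 3.46% of all promoters. The CArG box, searched as CC, a run of A or T, and GG, was rare. It was found in 1 of 20 activity-induced transcription factors (5.0%) and 0 of 15 effectors. In feedback genes it was found in 2 of 23 (8.7%) and in interferon-stimulated genes in 0 of 24, against 1.62% of all promoters. A match is a description of the letters and shows no binding. The sets hold only genes tested here, whereas the share of all promoters covers genes expressed or not, so these shares are not like for like. The lists name genes already known to respond to activity or interferon, so their shares say nothing about these libraries. The sequences run 5′ to 3′ on the gene's strand and end at the base before the start, with the matches in capitals. They cover chr12:85473640-85473889, plus strand (Fos), chr7:19310046-19310295, minus strand (Fosb), chr19:4989972-4990221, minus strand (Npas4) and chr12:26456453-26456702, minus strand (Rsad2). Capitals mark TGACG or its other strand, CGTCA, in Fos, Fosb and Npas4, and only the ISRE in Rsad2, which also holds CGTCA.
Fos: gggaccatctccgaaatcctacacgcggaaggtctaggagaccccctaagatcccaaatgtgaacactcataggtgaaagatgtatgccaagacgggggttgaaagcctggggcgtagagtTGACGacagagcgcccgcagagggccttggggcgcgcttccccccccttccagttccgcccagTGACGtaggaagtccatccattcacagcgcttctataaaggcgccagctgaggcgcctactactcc
Fosb: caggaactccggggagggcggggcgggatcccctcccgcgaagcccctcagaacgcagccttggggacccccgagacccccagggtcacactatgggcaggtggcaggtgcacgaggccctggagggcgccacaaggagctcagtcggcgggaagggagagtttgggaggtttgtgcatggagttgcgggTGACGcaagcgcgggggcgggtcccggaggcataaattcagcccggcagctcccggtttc
Npas4: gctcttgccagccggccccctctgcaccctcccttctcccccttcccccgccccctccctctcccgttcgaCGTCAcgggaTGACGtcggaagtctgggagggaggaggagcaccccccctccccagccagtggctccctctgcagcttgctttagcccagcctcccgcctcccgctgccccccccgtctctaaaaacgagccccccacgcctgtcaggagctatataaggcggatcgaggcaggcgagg
Rsad2: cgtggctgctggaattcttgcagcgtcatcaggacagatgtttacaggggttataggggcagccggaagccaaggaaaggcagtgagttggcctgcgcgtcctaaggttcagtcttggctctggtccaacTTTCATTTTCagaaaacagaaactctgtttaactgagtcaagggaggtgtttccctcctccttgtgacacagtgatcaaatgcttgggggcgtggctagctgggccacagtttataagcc

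Interferon-stimulated genes had higher means in dorsal than in ventral knockdown in 36 of 36 tested cases (median 2.1), with 10 at an unadjusted p under 0.05, against 1.28% of all genes in that direction. These genes are switched on by type I and II interferons and encode antiviral and antigen-processing proteins. Rsad2, the antiviral enzyme viperin, held 0.570, 4.76, 33.0 and 25.3 CPM in dorsal against 3.09, 1.76 and 0.520 CPM in ventral libraries (3.16, SE 1.25, unadjusted p = 0.0241, adjusted p = 1.0 by edgeR). Mx2, a dynamin-like antiviral GTPase, held 0.854, 2.52, 10.5 and 4.55 CPM against 1.11, 0.830 and 0.831 CPM (2.31, SE 0.84). Dorsal knockdown 3 and 4 were the high libraries, dorsal knockdown 2 lay slightly above the ventral range, and dorsal knockdown 1 lay within it. The list scores were -1.48, 0.09, 2.71 and 1.27 in dorsal and -0.02, -1.58 and -0.99 in ventral knockdown. They did not follow the activity genes, which were high in dorsal knockdown 1 and 4. Only Apol9a, an apolipoprotein L gene with a near-identical copy (Apol9b), showed no overlap, where 1.03% of all genes had every dorsal library higher. It held 0.285 to 5.13 CPM against 0 to 0.123 CPM, and no fold is given for levels that low. Without dorsal knockdown 3 the median of the list was 0.86. In controls the median was -1.93 (36 of 36 lower in dorsal), and ventral control 2 scored 2.09 against -1.96 to -1.12 in the other 6 control libraries.

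Other immune lists had dorsal knockdown 3 highest as well. MHC class I genes, which display peptides to T cells, had a median of 1.02 (14 of 16 higher) and 0.38 without that library. H2-K1, a classical class I gene, held 25.6, 59.4, 284 and 128 CPM against 49.9, 29.7 and 38.8 CPM (1.66, SE 0.69), and H2-Q4 held 2.85, 12.5, 83.1 and 39.8 CPM against 11.5, 1.97 and 7.17 CPM. The class I genes resemble one another closely, so the division of reads among them is uncertain. The immunoproteasome subunit Psmb8 held 2.42, 11.4, 41.9 and 15 CPM against 4.57, 3.84 and 5.51 CPM (1.93, SE 0.77). MHC class II genes, of which 6 of 9 passed the filter, had a median of 1.00 (6 of 6 higher) and -0.01 without dorsal knockdown 3. Cd74, the invariant chain, was at 58.4 CPM in that library and 0.519 to 18.6 CPM elsewhere. Of 18 chemokine and cytokine genes 13 passed the filter, and 13 of 13 were higher (median 1.45, 0.65 without dorsal knockdown 3 and 3.41 without ventral knockdown 2). Members of low level may have passed through the libraries where they were high, so this direction may be partly set by the filter. The list was led by Ccl5 at 0.712, 6.99, 23.8 and 22.4 CPM against 2.84, 0.207 and 0.416 CPM (3.57, SE 1.30) and Ccl3 (2.22, SE 0.99). Ccl4 was the member without overlap, named after its values were seen, where 1.03% of all genes had every dorsal library higher.

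Complement genes had a median of 0.78 (10 of 14 higher) and 0.47 without dorsal knockdown 3. At an unadjusted p under 0.05 stood 6 members on the higher side, where 1.28% of all genes stood. C3, the central complement protein, held 1.71, 2.72, 47.8 and 12.2 CPM against 7.17, 1.04 and 0.727 CPM, and C1s1 held 1.85 to 3.38 CPM against 0.935 to 1.35 CPM without overlap (1.24, SE 0.46). Microglia markers, which name the brain's resident macrophages, were higher in 19 of 19 cases (median 0.57, 4 at an unadjusted p under 0.05 against 1.28% of all genes). C1qa, C1qb and C1qc are members of both the complement and the microglia list. They count at that p in each, so these counts are not separate results. C1qa held 46.3, 77.7, 209 and 110 CPM against 39.0, 60.1 and 40.6 CPM (1.25, SE 0.50), and Trem2 held 14.4, 26.0, 39.0 and 29.7 CPM against 14.7, 14.1 and 11.5 CPM (1.02, SE 0.44). Dorsal knockdown 2, 3 and 4 lay above the ventral libraries for both and dorsal knockdown 1 did not. The microglia score of the control arm ran from -0.92 to 0.19.

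Of 23 lymphocyte and plasma cell names 2 passed the filter. Jchain, the joining chain of secreted antibodies, held 1.71, 5.24, 7.32 and 8.71 CPM in dorsal and 2.84, 0.519 and 0.831 CPM in ventral knockdown (2.05, SE 0.64), and 0 to 0.963 CPM in controls. It was above 1 CPM only in the dorsal knockdown libraries and ventral knockdown 2. It thus passed the filter through the group where it was high, and its direction was partly set by the filter. The summed level of the list was 3.27, 11.4, 37.8 and 24.2 CPM against 11.1, 2.70 and 4.36 CPM, and 14, 6, 0 and 4 against 4, 8 and 5 of its 21 measured members had 0 reads. Reactive astrocyte genes had a median of 0.92 (17 of 20 higher) and 0.12 without dorsal knockdown 3. This list shares C3 with the complement list and Cxcl10 with the chemokine list. Vim, vimentin, held 58.2, 83.3, 590 and 221 CPM against 155, 46.8 and 76.8 CPM, and the chemokine Cxcl10 held 0.427, 3.88, 102 and 30.3 CPM against 5.19, 0.104 and 0.312 CPM. Homeostatic astrocyte markers, in contrast, had a median of -0.16 (11 of 16 lower). The part of infiltrating or reactive cells in the interferon and MHC values was not tested.

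**Figure D5:**
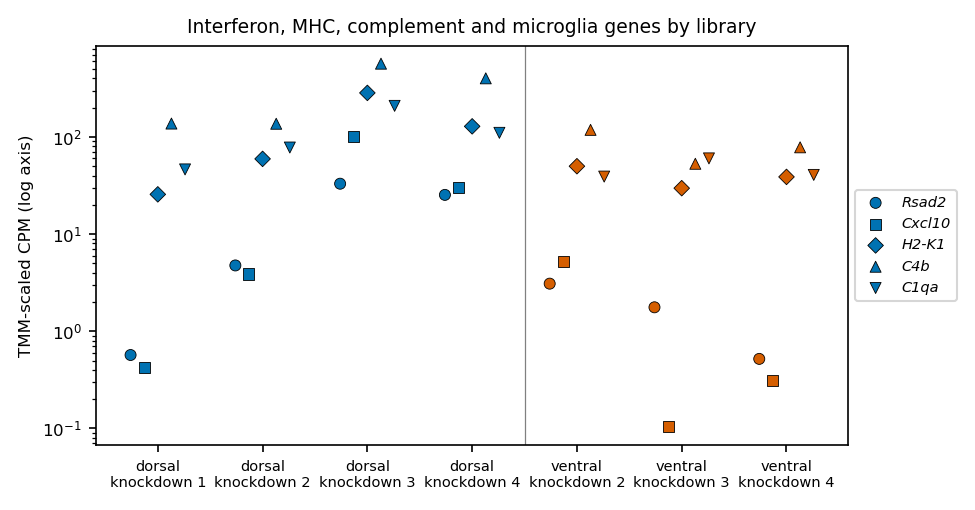
Levels of 5 immune genes in TMM-scaled CPM on a log axis, 1 symbol per gene and library, blue for dorsal and orange for ventral knockdown. Dorsal knockdown 3 is highest for each (Rsad2 33.0 CPM, C4b 567 CPM), and dorsal knockdown 1 lies in or near the ventral range.

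Myelin genes had slightly higher means in dorsal knockdown. Of 15 mature oligodendrocyte markers 14 were higher (median 0.43, control -0.21), with Gjb1, a gap junction protein of myelin, at 11.8 to 17.9 CPM against 6.24 to 10.4 CPM without overlap (0.78, SE 0.57). Trf, transferrin, held 256, 216, 563 and 546 CPM against 297, 287 and 138 CPM, and Mag, a myelin adhesion protein, 178, 120, 250 and 275 CPM against 117, 170 and 105 CPM. Ventral knockdown 4 had the lowest list score (-0.81), and without it the median was 0.21. Precursor markers had a median of 0.19 (9 of 12 higher). Interneuron markers had a median of -0.23 (15 of 20 lower), with Pvalb, parvalbumin, at 18.9, 40.9, 18.6 and 17.5 CPM against 27.8, 46.7 and 35.6 CPM and the neuregulin receptor Erbb4 at 26.5 to 78.6 CPM against 97.5, 30.0 and 116 CPM. Without ventral knockdown 2, which had the highest interneuron score (0.44), that median was -0.04.

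Synaptic gene groups lay near the median of all genes. Glutamate receptor subunits had a median of -0.05 (12 of 22 lower), GABA-A receptor subunits -0.19 (10 of 13 lower), presynaptic release genes -0.12 (15 of 21 lower) and postsynaptic density genes 0.19 (15 of 20 higher). No member of these 4 groups had an unadjusted p under 0.05. Gabrb2, a GABA-A subunit, held 166 to 204 CPM against 388, 140 and 274 CPM. Receptors for serotonin, acetylcholine and dopamine had a median of -0.06 (11 of 19 lower). Among them 3 lower members had an unadjusted p under 0.05, against 0.892% of all genes in that direction. Htr1a, the inhibitory serotonin receptor of pyramidal neurons, held 27.9, 28.7, 33.8 and 14.3 CPM against 38.2, 34.2 and 43.9 CPM without overlap (-0.56, SE 0.25). Chrna4, a nicotinic receptor subunit, held 16.8, 17.6, 6.44 and 25.2 CPM against 48.1, 10.7 and 63.7 CPM (-1.31, SE 0.53), and Htr1b 1.07 to 2.56 CPM against 2.59, 1.76 and 7.69 CPM (-1.18, SE 0.51, and -0.30 without ventral knockdown 4). For these 3 genes the control differences were 0.50 to 1.55, with the higher mean in dorsal libraries.

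Genes of the pathway that Acss2 serves showed small differences. For acetyl-CoA supply genes the median was -0.09 (9 of 14 lower), and for alcohol and aldehyde oxidation genes it was -0.07 (5 of 8 lower), with 0 members of either at an unadjusted p under 0.05. Slc16a1, a monocarboxylate transporter that carries acetate and lactate, held 39.7, 27.4, 56.5 and 43.3 CPM against 29.2, 22.9 and 33.2 CPM (0.55, SE 0.30). The aldehyde dehydrogenase Aldh1a1 held 20.9, 26.8, 64.3 and 34.1 CPM against 49.5, 63.9 and 29.4 CPM (-0.38, SE 0.38). Histone acetyltransferases and deacetylases had a median of -0.08 (16 of 21 lower), with Hdac9, a class IIa deacetylase, at 19.9 to 39.9 CPM against 56.3, 28.7 and 49.6 CPM (-0.57, SE 0.30).

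Cholesterol synthesis genes were lower in 23 of 28 cases, but by a median of -0.17, with the synthesis enzyme Hsd17b7 at 11.5 to 17.6 CPM against 22.9, 26.6 and 15.7 CPM (-0.57, SE 0.26). Glucocorticoid-responsive genes were lower in 16 of 18 cases (median -0.34). Their score was 0.68 in ventral knockdown 3 and -0.35 to 0.10 in the other 6 libraries, and without it the median was 0.08. Arrdc2, an arrestin-domain gene that glucocorticoids induce, held 64.0 CPM in that library and 9.88 to 19.4 CPM in the rest. Map3k6 and Sult1a1, a sulfotransferase, had differences of -0.92 and -0.88. Clock genes had a median of -0.10 (11 of 15 lower). Hlf, a clock output factor of the PAR bZIP family, held 60.8, 98.6, 57.2 and 89.6 CPM against 240, 84.2 and 212 CPM (-1.22, SE 0.35, unadjusted p = 0.00374), overlapping through ventral knockdown 3. Subunits of oxidative phosphorylation (median -0.11, 25 of 31 lower) and ribosomal proteins (median -0.01, 45 of 78 lower) had their high scores in dorsal knockdown 2 and ventral knockdown 3, at 0.55 and 0.67 and at 0.69 and 0.71. Those 2 libraries also had the highest gene share and the relative excess of short genes.

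The region difference was also set beside that of the controls. The control arm had 0 genes (0%) at an adjusted p under 0.05 and 813 (5.58%) at an unadjusted p under 0.05, and its median absolute log2 difference was 0.275 against 0.160 in the knockdown arm. Across 14160 genes, which are not independent replicates, the differences of the arms had Pearson r of -0.255 and Spearman rho of -0.003, and 54.1% had the same sign. The interaction, the knockdown difference minus the control difference, had 0 genes (0%) at an adjusted p under 0.05 and 672 (4.61%) at an unadjusted p under 0.05, with a smallest adjusted p of 0.499 by edgeR. DESeq2 called 13 genes in the control arm and 9 in the interaction. By edgeR, 6 genes were called in the control arm without ventral control 1, and 2 in the interaction without ventral knockdown 3.

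Prph, peripherin, an intermediate filament of neurons with long axons, had the smallest interaction p. It held 0.427, 3.11, 0.874 and 1.47 CPM in dorsal and 12.1, 0.726 and 10.6 CPM in ventral knockdown, against 10.7, 9.72 and 5.12 CPM in dorsal and 0.256 to 0.904 CPM in ventral controls. The interaction was -6.28 (SE 1.10, unadjusted p = 4.91e-05, adjusted p = 0.499 by edgeR), with an adjusted p of 0.000182 by DESeq2. By edgeR it was 0.0339 with 20 libraries, 0.0127 without ventral knockdown 3 and 0.277 to 1.0 without any other single library. The fit with 20 libraries added dorsal knockdown 5 and ventral knockdown 1, left out above for depth. It also added the untreated libraries, which held 4279 to 221847 gene reads. Wfs1 came next, with an interaction of -3.30 (unadjusted p = 6.84e-05, adjusted p = 0.499 by edgeR). For both genes the higher means lay in ventral knockdown and dorsal control. Pld5, related to phospholipase D, held 2.62 to 3.48 CPM in dorsal and 0.830 to 2.22 CPM in ventral knockdown without overlap, 2.38 to 3.30 CPM in dorsal controls, and 5.25, 20.7, 23.3 and 22.9 CPM in ventral controls. Its interaction was 3.47 (unadjusted p = 0.000131, adjusted p = 0.639 by edgeR). The adjusted p was 0.00367 by DESeq2 and, by edgeR, 0.0202 without ventral control 1 and 0.169 to 1.0 without any other single library. The ventral controls alone stood apart for this gene. Among the lists, the interaction was positive in 36 of 36 interferon-stimulated genes (median 4.06) and in 12 of 12 choroid plexus markers (median 4.96), where ventral control 2 and ventral control 4 held the high values, and negative in 6 of 6 dorsal markers (median -1.35).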

How the data were processed

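RNA from dorsal and ventral hippocampus was sequenced from a directional library kit, per the labels' protocols. The authors deposited whole-number read counts per gene, made with STAR 2.5.2a and HTSeq 0.6.1p1 against mm10, per the submitters' processing notes. No source used here states the strand setting. The table holds 24498 genes and 5 summary lines, which stayed out of library sizes, and 14 of its 21 sample columns were used. Gene reads ranged from 7416053 to 10634142 in the 7 knockdown libraries compared.

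Counts were fitted with edgeR 4.0.16 (R 4.3.3) on 14 ethanol libraries in 4 groups, with TMM scaling, filterByExpr at a minimum count of 10, the robust quasi-likelihood F-test and Benjamini-Hochberg adjustment over 14578 genes. The control libraries share the estimate of spread. Log2 CPM for correlations and scores used a prior count of 1, and scores used members of at least 1 CPM. Alternatives were DESeq2 1.42.0, RLE scaling, no filter, a replicate block, 20 libraries, only the 7 libraries, leaving out single libraries, and length-adjusted offsets. The fit was tested on simulated data. Named genes were Acss2, up to 12 per direction without overlap (mean of at least 5 CPM, smallest p), up to 3 per direction and list, and the 3 smallest interaction p. The members and lists were chosen with earlier results of these data known. Positions are from GENCODE on GRCm38.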

Additional observations from a re-analysis of the deposited data

Results flagged for a closer look

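In the 4 dorsal knockdown libraries, 4 of 133 values tested had 1 library set apart from the other 3 (a gap past Dixon's 95% critical value for 4 samples). Chance gives such a gap in about 1 of 20 groups. Wfs1 held 86.5 CPM in dorsal knockdown 3, below 133 to 144 CPM in the others. Pvalb held 40.9 CPM in dorsal knockdown 2, above 17.5 to 18.9 CPM. The neocortex marker score was 0.42 in dorsal knockdown 4, above -0.46 to -0.40, and the score of serotonin, acetylcholine and dopamine receptors was 0.38 in dorsal knockdown 1, above -0.26 to -0.20.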

How the results depend on the processing

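The knockdown comparison had 0 genes at an adjusted p under 0.05 under every alternative counted. These were DESeq2, RLE scaling, no filter, the replicate block, 20 libraries, the 7 libraries alone and length-adjusted offsets. Each of the 7 knockdown libraries was also left out in turn. Fits without a control library were not counted for this comparison. At an unadjusted p under 0.05 there were 192 to 845 genes with single knockdown libraries left out, 339 with the replicate block and 369 with length-adjusted offsets. The labels do not say whether same-numbered libraries are paired. Deviations of same-numbered libraries correlated at -0.154, -0.085 and 0.396 for replicates 2, 3 and 4. Dorsal knockdown 2 correlated best with ventral knockdown 3 (0.393). These values cannot decide the pairing, because libraries of different numbers correlated as highly as the replicate 4 pair.

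In the control arm DESeq2 called 13 genes and leaving out single libraries gave 0 to 6. In the interaction DESeq2 called 9, the fit with 20 libraries 1, and leaving out single libraries gave 0 to 2; the cause was not tested. Values that changed sign with 1 library left out ranged from -0.48 to 0.18 for Mpped1, -3.67 to 5.02 for Trh, -0.74 to 0.07 for Nr4a2 and -1.41 to 0.26 for Arrdc2. List medians ranged from -0.39 to 0.37 (CA1), -0.08 to 1.06 (CA3 and mossy cells), -1.54 to 0.13 (meninges), -0.66 to 0.06 (mural cells), -0.01 to 1.36 (MHC class II), -0.25 to 0.07 (glutamate receptors), -0.05 to 0.28 (postsynaptic density), -0.26 to 0.01 (serotonin, acetylcholine and dopamine receptors), -0.22 to 0.05 (alcohol oxidation), -0.68 to 0.08 (glucocorticoid response), -0.32 to 0.26 (oxidative phosphorylation) and -0.30 to 0.45 (ribosomal proteins). With the replicate block Trh was -0.92, and medians were -0.06 (postsynaptic density), 0.03 (alcohol oxidation), 0.02 (oxidative phosphorylation) and 0.20 (ribosomal proteins). The median of activity-induced transcription factors was 0.35 with the block against 0.81 in the main fit. In the block fit dorsal knockdown 1 had no ventral partner, because ventral knockdown 1 was left out for depth. It therefore added nothing to the region difference there, and the effect of pairing alone was not tested. Depth limits the genes of the lowest CPM most.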
